A study of Mus musculus with 8 samples.

Results

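The genes described here encode subunits of canonical Polycomb repressive complex 1 (canonical PRC1). They were chosen by symbol in GENCODE M21, through the Ensembl identifiers of the deposited counts. The 9 genes are Cbx2, Cbx7, Cbx8, Phc1, Phc2, Phc3, Bmi1, Pcgf2 and Scml2, among 55401 genes in all. Counts came from mouse prospermatogonia, which are fetal male germ cells, taken at E17.5 (embryonic day). There were 4 libraries labelled KO (genotype Tet1-/-, KO 1 to KO 4) and 4 labelled WT (genotype Tet1+/+, WT 1 to WT 4), all in batch 1. TET1 is an enzyme that oxidises methylated cytosine in DNA and can also recruit other chromatin proteins. By its title the series asks about the part of TET1 that does not need catalysis. The kind of Tet1 allele, the way the cells were isolated and any pooling of animals are not stated in the labels. Nor do they say whether libraries of a group came from separate animals, so p-values measure only the spread between these libraries, which may be technical.

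PRC1 attaches ubiquitin to histone H2A and compacts chromatin, which holds developmental genes silent. In the canonical form, a RING enzyme (RING1 or RNF2) pairs with PCGF2 or BMI1, a CBX protein reads the methyl mark that PRC2 places on histone H3, and a PHC protein links complexes into larger assemblies. SCML2 is a Polycomb protein of male germ cells. Each complex is thought to hold 1 member of each family, so paralogs take the same place in it.

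The paralogs are similar but distinct in sequence, which is shown here because the results turn on how they differ from each other. Sequences were read from GENCODE M21 transcripts (GRCm38), on the coding strand.

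The first set is the first 150 coding bases of the PCGF pair, from the region that encodes the RING finger, which holds the RING enzyme. Capitals mark the 119 bases that are identical in both.
Pcgf2: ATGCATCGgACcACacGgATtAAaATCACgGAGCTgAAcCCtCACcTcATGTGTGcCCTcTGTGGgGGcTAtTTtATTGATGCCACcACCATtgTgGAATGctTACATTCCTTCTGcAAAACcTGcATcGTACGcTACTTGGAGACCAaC
Bmi1: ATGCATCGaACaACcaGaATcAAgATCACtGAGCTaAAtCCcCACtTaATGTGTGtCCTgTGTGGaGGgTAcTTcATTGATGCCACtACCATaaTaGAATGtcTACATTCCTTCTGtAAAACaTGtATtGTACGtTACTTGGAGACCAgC

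The second set holds the last 150 coding bases before the stop codon of each PHC gene, from the region that encodes the SAM domain, through which PHC proteins join into chains. Capitals mark the 98 bases identical in the 3 genes.
Phc1: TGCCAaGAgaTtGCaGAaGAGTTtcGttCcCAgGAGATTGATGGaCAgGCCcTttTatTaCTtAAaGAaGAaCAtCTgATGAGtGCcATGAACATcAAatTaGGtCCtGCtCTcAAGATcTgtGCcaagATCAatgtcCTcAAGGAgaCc
Phc2: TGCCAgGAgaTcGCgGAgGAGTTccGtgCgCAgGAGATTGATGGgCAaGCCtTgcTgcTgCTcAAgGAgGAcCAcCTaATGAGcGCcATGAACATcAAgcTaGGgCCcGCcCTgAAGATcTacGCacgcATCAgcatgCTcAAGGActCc
Phc3: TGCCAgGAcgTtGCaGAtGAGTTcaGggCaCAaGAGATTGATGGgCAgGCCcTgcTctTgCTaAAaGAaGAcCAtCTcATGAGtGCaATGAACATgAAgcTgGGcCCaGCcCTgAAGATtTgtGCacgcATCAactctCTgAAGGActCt
None of the 36 pairs among the 9 genes shared a stretch of 50 bases in any annotated transcript. Of the 50-base stretches of the longest transcript, 18.5% for Bmi1 also occurred in the processed pseudogenes Gm5946 or AC114652.1, which had 38 and 3 counts in all. For Cbx7, 0.749% also occurred in Apobec3, whose exons overlap 100 of the 6487 exonic bases of Cbx7 on the other strand. The other 7 genes shared none with any other gene.

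Total counts were 13820764 to 19947912 per library labelled KO, against 14732396 to 20115250 per library labelled WT. The targeted gene went against the labels. Tet1 (ENSMUSG00000047146.17) averaged 124 ± 33.4 CPM (counts scaled to library size, with TMM scaling, the trimmed mean of M values) in the libraries labelled KO and 31.9 ± 1.95 CPM in those labelled WT (SD, n = 4 each). Its log2 difference was 1.97 (SE 0.178, edgeR quasi-likelihood test, Benjamini-Hochberg adjusted p = 3.03e-06). A count per gene does not show which exons were read, so every direction below refers to the labels as deposited. Germ cell markers summed to 2752 to 3368 CPM over 11 genes in the libraries labelled KO and 3069 to 3562 CPM in those labelled WT, with 4 of the 11 higher and 4 lower. Library KO 4 stood apart in 6 Leydig cell markers, with a sum of 1803 CPM against 14.9 to 22.7 CPM in the other libraries labelled KO and 16.4 to 32.5 CPM in those labelled WT. Inha, listed as a Sertoli cell marker, was also high there, and the 10 Sertoli markers summed to 106 CPM in KO 4. They summed to 30.6 to 34.2 CPM in KO 1 to KO 3 and 18.4 to 35.3 CPM in the libraries labelled WT. Of these WT 2 had 35.3 CPM and the other libraries labelled WT 18.4 to 22.4 CPM. With KO 4 included, 5 of 9 Sertoli markers tested were higher and 1 lower, and 5 of 5 Leydig markers tested were higher. Values of the 9 genes and Tet1 without KO 4 are therefore given below. The calls of these markers are given with all libraries only.

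Among the 9 genes, Cbx2 and Pcgf2 rose and Phc2, Phc3 and Cbx8 fell in the libraries labelled KO, while Cbx7, Phc1, Bmi1 and Scml2 did not pass. All 9 were above the low-count filter, with 179 to 7718 counts in any library. The 5 calls (55.6%) are to be read beside 53.5% of all 24005 genes tested at an edgeR adjusted p under 0.05, so the share is near the background. Over all genes 25.3% passed as higher and 28.2% as lower. Among the 8364 genes whose mean log2 CPM was at least 4, where all 9 lie, 63.7% passed, 46.0% as higher and 17.7% as lower. The groups did not overlap for 4 of the 9 genes, for 48.4% of all genes tested and for 59.3% of those 8364. The median log2 difference was 0.04 over the 9 genes and -0.05 over all genes, and the median size of a difference was 0.43 against 0.62. Without KO 4, 4 of the 9 genes passed, with the call of Cbx8 lost at a log2 difference of -0.38 (edgeR adjusted p = 0.102). Cbx7 (0.22), Phc1 (0.17), Bmi1 (0.11) and Scml2 (-0.047) did not pass without KO 4 either. The log2 difference of Tet1 was then 1.90 (edgeR adjusted p = 1.27e-05).

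**Figure D1:**
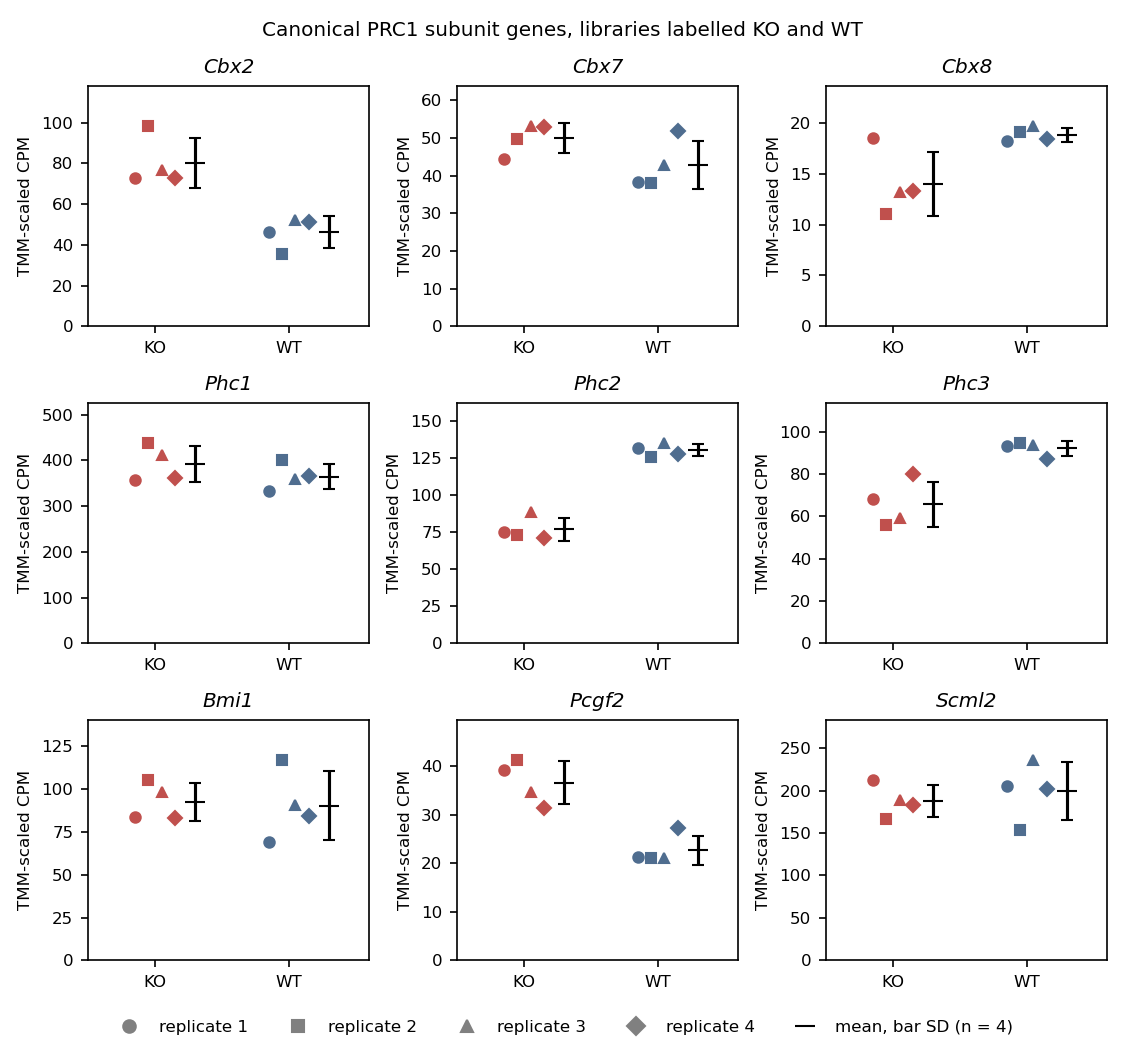
TMM-scaled CPM (vertical axis, from 0) of the 9 genes in each library labelled KO (left) and WT (right), with the mean and SD of 4 libraries beside the points. For Cbx2 and Pcgf2 all 4 libraries labelled KO lie above all 4 labelled WT, for Phc2 and Phc3 all 4 lie below, and for the other genes the groups overlap.

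PCGF2 and BMI1 are the alternative partners of the RING enzyme in canonical PRC1. Pcgf2 (ENSMUSG00000018537.16, chromosome 11, 97688823 to 97700497, minus strand, GRCm38) had 39.2, 41.3, 34.7 and 31.4 CPM in KO 1 to KO 4, against 21.3, 21.2, 21.1 and 27.2 CPM in WT 1 to WT 4. The groups did not overlap, and WT 4 was the highest of its group. Pcgf2 averaged 36.7 ± 4.45 CPM in the libraries labelled KO and 22.7 ± 3.03 CPM in those labelled WT (SD, n = 4 each). The log2 difference was 0.69 (SE 0.133, edgeR adjusted p = 0.000771), a 1.62-fold level, and it was 0.79 without KO 4 (edgeR adjusted p = 0.000814).

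Bmi1 (ENSMUSG00000026739.13, chromosome 2, 18677018 to 18686629, plus strand, GRCm38) had 82.8 to 105 CPM in the libraries labelled KO, against 69.1 to 117 CPM in those labelled WT, so that the range in KO lay within that in WT. Its log2 difference was 0.04 (95% interval -0.28 to 0.36, edgeR adjusted p = 0.849). The interval holds changes of either sign smaller than that of Pcgf2.

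The CBX subunits read the PRC2 mark, and their genes differed in direction. CBX2 compacts chromatin and is needed in mice for formation of the testis. Cbx2 (ENSMUSG00000025577.7, chromosome 11, 119022962 to 119031270, plus strand, GRCm38) had 72.6, 98.3, 76.6 and 73.0 CPM in KO 1 to KO 4, against 46.2, 35.6, 52.4 and 51.0 CPM in WT 1 to WT 4. All libraries labelled KO lay above all labelled WT, with KO 2 the highest and WT 2 the lowest. Cbx2 averaged 80.1 ± 12.2 CPM in the libraries labelled KO and 46.3 ± 7.61 CPM in those labelled WT (SD, n = 4 each). This was a log2 difference of 0.79 (SE 0.142, edgeR adjusted p = 0.000473), a 1.73-fold level, and 0.86 without KO 4 (edgeR adjusted p = 0.000886).

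Cbx8 lies next to Cbx2 on chromosome 11, 5.03 kb away and on the other strand, so that the genes point towards each other. Cbx8 (ENSMUSG00000025578.9, 119036305 to 119040969, minus strand, GRCm38) had 18.5, 11.1, 13.2 and 13.3 CPM in KO 1 to KO 4, against 18.2, 19.1, 19.7 and 18.4 CPM in WT 1 to WT 4. KO 1 lay within the range of the libraries labelled WT and the other 3 libraries labelled KO lay below it. Cbx8 averaged 14.0 ± 3.16 CPM in the libraries labelled KO and 18.8 ± 0.684 CPM in those labelled WT (SD, n = 4 each). This gave a log2 difference of -0.43 (SE 0.160, edgeR adjusted p = 0.0378). This call was close to the threshold: it was lost when any library other than KO 1 was left out (edgeR adjusted p = 0.0599 to 0.154). Without KO 2 the difference was -0.29.

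Cbx7 (ENSMUSG00000053411.16, chromosome 15, 79915807 to 79971119, minus strand, GRCm38), which encodes the main CBX subunit of mouse embryonic stem cells, had 44.5 to 53.1 CPM in the libraries labelled KO, against 38.0 to 51.9 CPM in those labelled WT. The groups overlapped because WT 4 had 51.9 CPM, while the other libraries labelled WT had 42.9 CPM or less. The log2 difference was 0.23 (95% interval -0.04 to 0.49, edgeR adjusted p = 0.138), and without WT 4 it was 0.35 and passed (edgeR adjusted p = 0.0285).

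The PHC subunits link PRC1 complexes through their SAM domains, and here only the less abundant paralogs passed. Phc2 (ENSMUSG00000028796.17, chromosome 4, 128654702 to 128752881, plus strand, GRCm38) had the lowest p of the 9 genes. It had 74.9, 73.0, 88.5 and 71.1 CPM in KO 1 to KO 4, against 132, 126, 135 and 128 CPM in WT 1 to WT 4. The groups lay far apart compared with the spread within them. Phc2 averaged 76.9 ± 7.89 CPM in the libraries labelled KO and 130 ± 4.13 CPM in those labelled WT (SD, n = 4 each). The log2 difference was -0.76 (SE 0.0997, edgeR adjusted p = 4.51e-05), a 0.590-fold level, and -0.70 without KO 4 (edgeR adjusted p = 0.000425).

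Phc3 (ENSMUSG00000037652.15, chromosome 3, 30899371 to 30969415, minus strand, GRCm38) had 68.0, 56.0, 59.2 and 79.7 CPM in KO 1 to KO 4, against 93.2, 94.6, 93.8 and 86.9 CPM in WT 1 to WT 4. All libraries labelled KO lay below all labelled WT, with KO 4 nearest to them. Phc3 averaged 65.7 ± 10.6 CPM in the libraries labelled KO and 92.1 ± 3.52 CPM in those labelled WT (SD, n = 4 each). The log2 difference was -0.49 (SE 0.118, edgeR adjusted p = 0.00363), and -0.57 without KO 4 (edgeR adjusted p = 0.0017).

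Phc1 (ENSMUSG00000040669.14, chromosome 6, 122317731 to 122340561, minus strand, GRCm38) was the most abundant of the 9 genes, with 358 to 438 CPM in the libraries labelled KO and 333 to 401 CPM in those labelled WT. Its log2 difference was 0.11 (95% interval -0.12 to 0.33, edgeR adjusted p = 0.408), and the groups overlapped.

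Scml2 (ENSMUSG00000000037.16, chromosome X, 161117193 to 161258213, plus strand, GRCm38) encodes the germline Polycomb protein that in mouse spermatogenesis acts in silencing somatic genes and on the sex chromosomes. It had 167 to 212 CPM in the libraries labelled KO, against 153 to 236 CPM in those labelled WT, and the groups overlapped. Its log2 difference was -0.08 (95% interval -0.36 to 0.19, edgeR adjusted p = 0.603).

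**Figure D2:**
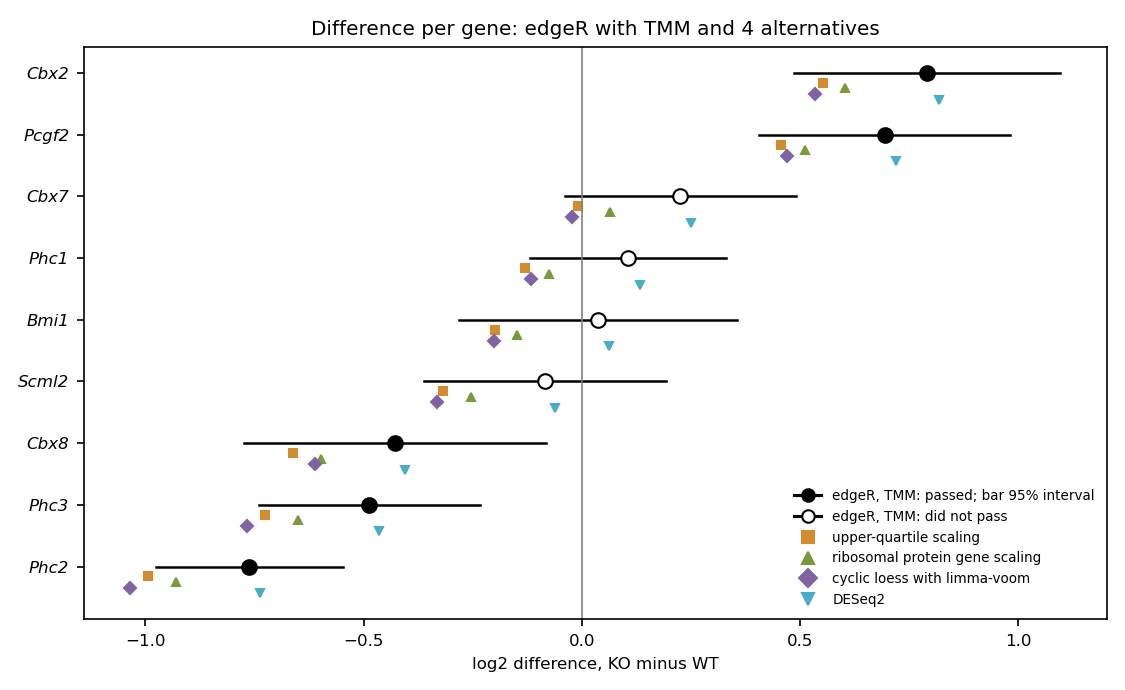
Log2 difference KO minus WT (horizontal axis) of each gene by edgeR with TMM scaling, with its 95% interval, and by 4 alternatives; filled circles passed. Cbx2 (0.79) and Pcgf2 (0.69) stand right of 0 and Cbx8 (-0.43), Phc3 (-0.49) and Phc2 (-0.76) left of 0 in every setting drawn, while Cbx7, Phc1 and Bmi1 cross 0.

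The signs of the 5 genes that passed were the same under every scaling tried, whereas those of Cbx7, Phc1 and Bmi1, which did not pass, turned negative with upper-quartile scaling. That scaling shifted the median over all genes by -0.24, and a scaling based on 83 ribosomal protein genes shifted it by -0.18. With upper-quartile scaling the difference was 0.55 for Cbx2, 0.46 for Pcgf2, -0.66 for Cbx8, -0.72 for Phc3 and -0.99 for Phc2.

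A ratio of the counts of a pair of paralogs within a library does not depend on how libraries are scaled, and 7 such ratios were compared. Of these, 5 did not overlap between the groups, each with exact two-sided permutation p = 0.0286, the smallest that the 70 possible assignments allow, and adjusted p = 0.04 over the 7 ratios. The ratios share genes and are not independent. Ratios of other gene pairs were not examined, so no background share stands beside the 5. Of single genes, the groups did not overlap for 48.4% of all tested and 59.3% of those with mean log2 CPM of at least 4. Phc1/Phc2 was 4.78, 6.00, 4.66 and 5.09 in KO 1 to KO 4, against 2.52, 3.18, 2.66 and 2.85 in WT 1 to WT 4. The balance thus stood 1.83-fold further towards Phc1 in the libraries labelled KO (log2 difference 0.87, SE 0.110). Phc1/Phc3 was 4.54 to 7.82 in the libraries labelled KO and 3.57 to 4.24 in those labelled WT, a log2 difference of 0.60 (SE 0.190).

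Among the CBX genes, Cbx2/Cbx8 was 3.93, 8.88, 5.80 and 5.49 in KO 1 to KO 4, against 2.54, 1.86, 2.67 and 2.77 in WT 1 to WT 4. This made a log2 difference of 1.25 (SE 0.275), a 2.37-fold shift towards Cbx2 and the largest of the 7. Cbx2/Cbx7 was 1.38 to 1.98 in the libraries labelled KO and 0.937 to 1.22 in those labelled WT, a log2 difference of 0.56 (SE 0.153). In the PCGF pair, Bmi1/Pcgf2 was 2.13, 2.55, 2.84 and 2.64 in KO 1 to KO 4, against 3.25, 5.51, 4.30 and 3.10 in WT 1 to WT 4. It was lower in the libraries labelled KO by a log2 difference of -0.64 (SE 0.212).

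For the other ratios the groups overlapped. Cbx8/Cbx7 was 0.223 to 0.415 in the libraries labelled KO and 0.354 to 0.503 in those labelled WT (exact permutation p = 0.0571, adjusted p = 0.0666). Phc3/Phc2 was 0.669 to 1.12 in the libraries labelled KO and 0.678 to 0.751 in those labelled WT (exact permutation p = 0.2, adjusted p = 0.2), so the falls of Phc2 and Phc3 were not shown to differ in size. Without KO 4 the 5 log2 differences of the ratios that did not overlap ran from -0.66 to 1.27 and kept their signs.

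**Figure D3:**
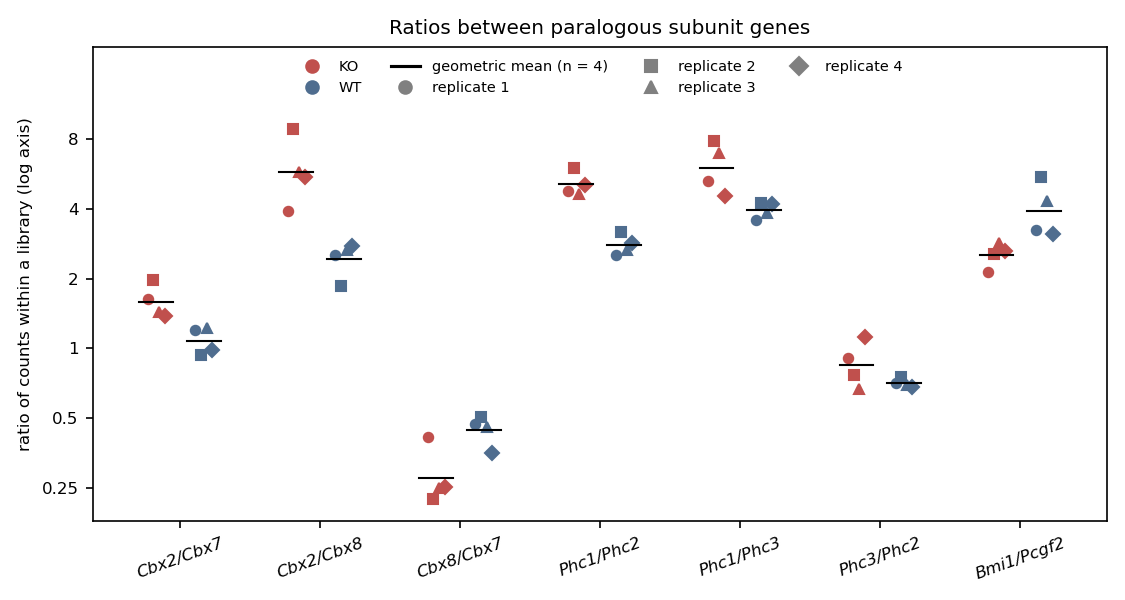
Ratio of the counts of a pair of paralogs within each library (vertical axis, log scale), with libraries labelled KO left of those labelled WT and the geometric mean as a line. Phc1/Phc2 spans 4.66 to 6.00 in the libraries labelled KO and 2.52 to 3.18 in those labelled WT; Cbx8/Cbx7 and Phc3/Phc2 overlap.

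Levels of different genes were compared per length, as CPM per kb of all exons of a gene. Phc1 was highest, at 74.1 ± 7.37 CPM per kb in the libraries labelled KO and 68.8 ± 5.31 CPM per kb in those labelled WT (SD, n = 4 each). Scml2 followed, at 30.9 ± 3.11 and, in those labelled WT, 32.7 ± 5.62 CPM per kb, and then Bmi1, at 23.3 ± 2.81 in those labelled KO and 22.7 ± 5.01 CPM per kb in those labelled WT. Cbx2 stood above Phc2, with 18.8 ± 2.87 CPM per kb in the libraries labelled KO, and below it, with 10.9 ± 1.79 CPM per kb, in those labelled WT. Phc2 had 10.9 ± 1.12 CPM per kb in the libraries labelled KO and 18.5 ± 0.584 CPM per kb in those labelled WT. By this length the libraries of Cbx2 and Phc2 did not overlap within either group. Next came Pcgf2 and Cbx7, at 10.4 ± 1.26 and 7.71 ± 0.619 CPM per kb in the libraries labelled KO. In the libraries labelled WT, Cbx7 had 6.60 ± 0.996 and Pcgf2 6.44 ± 0.860 CPM per kb, and they overlapped. Cbx8 and Phc3 were lowest and overlapped in both groups, at 3.81 ± 0.858 and 3.76 ± 0.608 CPM per kb in the libraries labelled KO, against 5.12 ± 0.186 and 5.27 ± 0.201 CPM per kb in those labelled WT. Bmi1 overlapped with Cbx2 and Phc2 with Pcgf2 in the libraries labelled KO, and Bmi1 with Scml2 and with Phc2 in those labelled WT. The order depends on the length used, most of all for Phc2, whose exons cover 7064 bases and its longest transcript 3949 (a ratio of 1.79), and next for Phc3 (1.59) and Pcgf2 (1.42). With the longest transcript as length, Phc2 had 19.5 ± 2.00 CPM per kb in the libraries labelled KO and overlapped with Cbx2. In the libraries labelled WT it then had 33.0 ± 1.05 CPM per kb, in the third place before Bmi1, and overlapped with Scml2 and Bmi1. Phc3 then stood before Cbx8 in both groups and did not overlap with it in the libraries labelled WT.

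The share of each paralog among those of its family in the 9 genes, by CPM per kb, describes the same shift. Cbx2 made up 61.8 ± 4.48% of the sum of Cbx2, Cbx7 and Cbx8 in the libraries labelled KO and 47.9 ± 3.44% in those labelled WT (SD, n = 4 each). Cbx8 made up 12.7 ± 3.49% in the libraries labelled KO and 22.9 ± 2.83% in those labelled WT. Phc1 made up 83.4 ± 1.71% of the PHC genes in the libraries labelled KO and 74.3 ± 1.81% in those labelled WT, while Phc2 made up 12.3 ± 1.15% and, in those labelled WT, 19.99 ± 1.51%. Pcgf2 made up 30.9 ± 2.62% of the PCGF pair in the libraries labelled KO and 22.5 ± 4.52% in those labelled WT. Bmi1 was the more abundant of the pair in every library. With the longest transcript as length, Phc1 made up 78.5 ± 2.06% and Phc2 16.4 ± 1.46% in the libraries labelled KO, against 67.6 ± 2.09% for Phc1 and 25.9 ± 1.79% for Phc2 in those labelled WT.

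**Figure D4:**
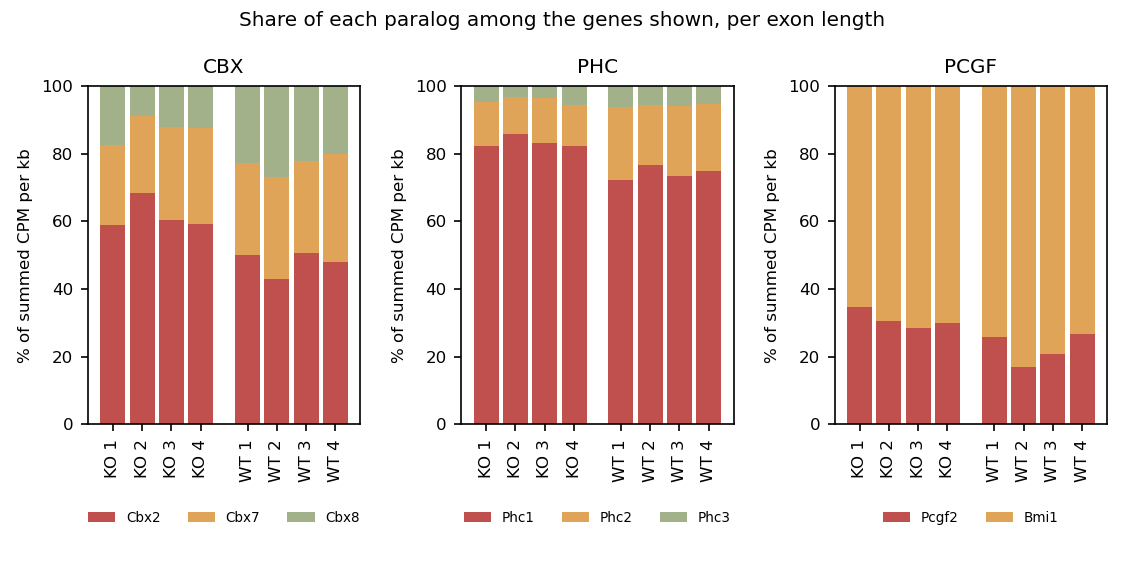
Share of each paralog in the summed CPM per kb of the genes of its family shown (vertical axis, percent) in each library, with those labelled KO left of those labelled WT. Cbx2 takes 58.9% to 68.4% in the libraries labelled KO and 43.1% to 50.7% in those labelled WT, and Phc1 is the largest part of the PHC bars throughout.

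The gene whose pattern over the 8 libraries was closest to that of Phc2, the gene with the lowest p, was Dennd3, by the root mean square difference of log2 CPM centred on each gene (0.0683). Mylip (0.0703) and Tm2d3 (0.0746) followed among 15259 protein-coding genes, whose median was 0.56. Each was lower in the libraries labelled KO, with log2 differences of -0.84, -0.79 and -0.86. These genes were chosen over the 8 libraries of both groups together, so a fall like that of Phc2 follows from the choice.

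Promoter windows of 250 bases before to 50 after a gene start were found in RefSeq (GRCm38.p6) for 8 of the 9 genes, Cbx2 not among them, with 3 windows for Phc2. The median number of CpG dinucleotides was 17 in these 10 windows and 7 in all 32851 windows of that kind. The letters CACGTG, an E-box that reads the same on both strands, occurred in windows of 5 genes. They were in 5 of these 10 windows, in 7.15% of all windows and in 10.8% of those with 9 or more CpG. Of the 10 windows, 9 reached that cutoff, which equals the CpG number of the Phc1 window. Cbx7, Phc1 and Scml2, which did not pass, did not have these letters in their windows. The stretches are printed 5′ to 3′ on the strand of the gene, with the E-box in capitals. Of the Phc2 windows, only the one that starts at 128654452 had it. Whether the letters go with the direction or the call of a gene was not tested.
Pcgf2, which rose (chr11:97699770-97699795, minus strand): ggaatgaggtCACGTGggtgagtagt
Cbx8, which fell (chr11:119040996-119041021, minus strand): tcgttagcaaCACGTGgggcgggagg
Phc2, which fell (chr4:128654635-128654660, plus strand): ctggagtgggCACGTGacactctccg
Phc3, which fell (chr3:30969482-30969507, minus strand): tcgctggcctCACGTGacctctgcgc
Bmi1, which did not pass (chr2:18676793-18676818, plus strand): atgaggggagCACGTGacccggcggg
Counted to the RefSeq start, the E-box began 137 bases before Pcgf2, 98 before Cbx8, 57 before Phc2, 82 before Phc3 and 215 before Bmi1. The RefSeq windows of Pcgf2, Cbx7, Phc1 and Scml2 lie inside the gene spans given above, so they do not reach the starts of those spans. That of Cbx7 was at 79932597 to 79932896 and that of Scml2 at 161162500 to 161162799. The letters GCGGGAA, an E2F motif, were in none of the 10 windows on either strand, against 4.6% of all windows, and CCAAT was in 4 of them, against 37.4%. A match describes the letters and shows no binding.

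Of 3 further canonical PRC1 genes, Rnf2, Ring1 and Cbx6, 2 rose and 0 fell by edgeR, with a median log2 difference of 0.75. Rnf2, which encodes the main ubiquitin ligase, rose by a log2 difference of 0.83 (SE 0.127, edgeR adjusted p = 0.000152), with 73.9 ± 4.95 CPM in the libraries labelled KO and 41.6 ± 7.24 CPM in those labelled WT (SD, n = 4 each). Its paralog Ring1 rose by 0.75 (edgeR adjusted p = 0.0139), although WT 4 lay within the range of the libraries labelled KO. Cbx6, a CBX gene, did not pass, with a difference of 0.05 (edgeR adjusted p = 0.748). With upper-quartile scaling 1 of these 3 genes passed as higher.

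Variant PRC1 forms lack the PHC subunits and the CBX subunits that read the PRC2 mark. Of 21 of their genes 11 rose, 4 fell and 6 missed the threshold, with a median log2 difference of 0.35. The counts of each list are to be read beside all genes tested, of which 25.3% passed as higher and 28.2% as lower. Among genes of mean log2 CPM 4 or more these shares were 46.0% and 17.7%. Pcgf3 rose by 0.94 and Pcgf6 by 0.72, whereas their paralog Pcgf5 fell, with a difference of -0.72. The deubiquitinase gene Usp7 rose by 0.92. The number higher was 6 of 21 with upper-quartile, 7 with ribosomal protein and 8 with cyclic loess normalization, each beside 4 lower. The lower calls other than that of Pcgf5 depended on single libraries: without KO 4 or without WT 3 only Pcgf5 passed as lower, and without KO 1 there were 2, Pcgf5 and Skp1a, while 11 were higher in each case. Of 12 PRC2 genes, 8 rose, 2 fell and 2 missed the threshold, with a median of 0.54. Of those that rose, Mtf2 (0.95) and Rbbp7 (0.96) had the lowest p. The methyltransferase gene Ezh2 rose by 1.06, with 113 ± 13.6 CPM in the libraries labelled KO and 54.5 ± 10.9 CPM in those labelled WT (SD, n = 4 each). Its paralog Ezh1, known for its expression in cells that do not divide, fell, with a difference of -0.47, and so did Eed (-0.53). With upper-quartile and ribosomal protein scaling 7 PRC2 genes were higher and 3 lower, and with cyclic loess 8 and 3. With all libraries, the edgeR adjusted p was 0.00979 for Skp1a and 0.00329 or lower for the other genes named in this paragraph.

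Of 15 other Polycomb group genes, 4 were higher and 5 lower, with Yy1 (1.08), a DNA-binding factor, and Asxl3 (-0.99), a partner of the H2A deubiquitinase, at the lowest p in each direction. This balance changed with the scaling, with 2 higher under each of the upper-quartile, ribosomal protein and cyclic loess settings, beside 8, 5 and 7 lower. It also changed with single libraries, with 3 lower when KO 1, KO 3, WT 2 or WT 3 was left out, and with 3 lower without a low-count filter. Classic Polycomb targets, the HOX genes with Cdkn2a and Cdkn2b, numbered 41. Of these 16 had too few counts to be tested. By edgeR 0 were higher and 11 lower at an adjusted p under 0.05, as by DESeq2. At an unadjusted p under 0.05, 1 was higher and 13 lower. Beside these adjusted counts, and those of the 15 genes above, stand 25.3% higher and 28.2% lower over all genes tested. The share among genes of low counts alone was not computed. Without WT 2, 2 were higher and 11 lower. Hoxb4 had 3.47 ± 1.03 CPM in the libraries labelled KO and 9.998 ± 0.884 CPM in those labelled WT (SD, n = 4 each). With cyclic loess 4 of the targets were higher and 10 lower.

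Proliferation genes moved with the labels as well. The 12 genes, among them Mki67 (log2 difference 3.00), summed to 2471 to 2555 CPM in the libraries labelled KO and 593 to 802 CPM in those labelled WT, and all 12 were higher. The summed markers of other cell types overlapped between the groups except those of macrophages and, without KO 4, those of red cells. Interstitial and peritubular markers summed to 87.2 to 109 CPM over 7 genes in the libraries labelled KO and 85.5 to 102 CPM in those labelled WT, with 2 of the 7 higher and 1 lower. Endothelial markers summed to 56.0 to 69.8 CPM over 5 genes in the libraries labelled KO and 57.1 to 68.8 CPM in those labelled WT. These sums hide opposite moves, since of 4 endothelial markers tested 1 was higher, Pecam1, and 3 were lower. The 5 macrophage markers summed to 1.93 to 4.63 CPM in the libraries labelled KO and 5.65 to 8.67 CPM in those labelled WT, with 3 of 3 tested lower. The 5 red cell genes summed to 12.6 to 20.9 CPM in the libraries labelled KO and 17.9 to 22.8 CPM in those labelled WT, with 1 higher and 1 lower of 4 tested. In KO 1 to KO 3 they summed to 12.65 to 13.05 CPM, below all libraries labelled WT. Of these genes Alas2 had the largest mean, 9.25 CPM in KO and 18.5 CPM in WT. The other red cell genes listed had higher means in the libraries labelled KO. None of these markers was at 0 in all 8 libraries. In bulk RNA, fewer cells of a type and less RNA per cell cannot be told apart. The part of proliferation or of other cells in the differences of the PRC1 genes was not tested.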

How the data were processed

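RNA sequencing was made from 5 ng of ribosomal RNA-depleted total RNA with a kit that carries molecular identifiers, per the labels' protocols. The authors deposited raw counts per gene and library, as unnormalized whole numbers. Per the submitters' processing notes the tools included featureCounts 1.5.0, STAR and Trim Galore, besides DESeq2 and edgeR, on build mm10, without stating what each did. Strand setting, collapse of identifiers and annotation release are not stated. Of 55401 identifiers, 55141 matched GENCODE M21 without the version.

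The counts were fitted with edgeR 4.0.16 in R 4.3.3 (filterByExpr, TMM, quasi-likelihood test, genotype as its only term) over 24005 genes, with Benjamini-Hochberg adjustment over all of them and a threshold of 0.05. A count of 3 or fewer, the limit that a count of 0 allows, was 0.149 to 0.217 CPM. Such limits cover counting error only. Intervals are 95% intervals of the fit. Ratios were compared by exact two-sided permutation (SciPy 1.17.1). Alternatives were DESeq2 1.42.0, cyclic loess with limma 3.58.1, other scalings and filters, the replicate number as a block, and leaving out each library. The longest transcript as length for the family shares was an alternative chosen after seeing the data. The fit was tested on simulated counts with known changes. The members and gene lists were chosen with earlier results of these data known. Named were all 9 members, Tet1, some of the up to 3 passing genes with the lowest p per direction in each list, and the 3 genes most like Phc2. Of 13 PRC2 symbols, 12 were found in the annotation. Correlations of same-numbered libraries over 14123 genes were 0.301 for replicate 1 and -0.285 to -0.0517 for the others, so the numbers were not taken as pairs. The library names of KO 1 and WT 1 share a number, which the other names do not; the labels do not say what it stands for. Some results are not reported here.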

Additional observations from a re-analysis of the deposited data

Results flagged for a closer look

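For the 9 genes, Tet1 and the 7 ratios, 34 groups of 4 libraries were examined for a library far from the rest of its group, and 2 had one; chance gives about 1 in 20. Cbx2 was at 98.3 CPM in KO 2, above 72.6 to 76.6 CPM in the other libraries labelled KO. Pcgf2 was at 27.2 CPM in WT 4, above 21.1 to 21.3 CPM in the other libraries labelled WT. Without KO 2 the log2 difference of Cbx2 was 0.71, and without WT 4 that of Pcgf2 was 0.81; both still passed (edgeR adjusted p = 0.0014 and 0.000356).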

How the results depend on the processing

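The calls of Cbx2, Pcgf2, Phc2 and Phc3 held in all 16 alternatives. Cbx8 lost its call without a low-count filter (-0.39, edgeR adjusted p = 0.0903) and over the leave-out fits ran from -0.565 to -0.29. Scml2 passed with cyclic loess (-0.33, limma adjusted p = 0.0347). The differences of genes that did not pass changed sign: Cbx7 with upper-quartile scaling (-0.0084) and cyclic loess (-0.023), Phc1 with upper-quartile (-0.13), ribosomal protein (-0.074) and cyclic loess (-0.12), and Bmi1 with these (-0.20, -0.15 and -0.20) and with a filter of CPM 1 or more in 4 libraries (-0.0037). Leaving out a library gave -0.069 to 0.19 for Bmi1, -0.19 to 0.028 for Scml2 and 0.18 to 0.35 for Cbx7. Upper-quartile scaling gave 4033 genes higher in all. The cause of these changes was not tested. With the replicate number as a block, 11518 of all genes passed, Cbx8 lost its call (-0.45, edgeR adjusted p = 0.0526), and the other members kept theirs. Only KO 1 correlated best with the library of its own number.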
